A study of Mus musculus with 67 samples.

Results

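The genes described here are 10 markers of hepatic stellate cells and of the matrix these cells lay down: Col1a1, Col1a2, Col3a1, Lum, Dcn, Tgfb1, Acta2, Timp1, Des and Lgals1. They were chosen by name, as the rows of the deposited FPKM table whose gene symbol matched. All 10 of 10 were found among 45808 gene rows. FPKM values are read counts scaled to exon length and by a factor for each library. Lgals1 gave the greatest differences, being lower in livers labelled CryDKO than in WT livers. It was also lower under restricted than ad libitum feeding, both in livers labelled ReverbLDKO and in WT livers. Its feeding effects were not shown to differ between genotypes. Col1a2 and Col3a1 were higher in both liver knockouts than in WT livers, and after a correction for library GC content this held for both genes within ad libitum but not within restricted libraries. Feeding differences of Lum, Dcn, Tgfb1 and Des were also seen in WT livers, where library base composition differed between the feedings.

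Liver mRNA was sequenced in 67 libraries from C57BL/6 mice aged 24 weeks, of which the last 12 weeks were spent on high-fat chow. Each genotype was fed either by time-restricted feeding, with food given in a daily window whose hours are not given in the sources used here, or ad libitum, and libraries were taken by zeitgeber time (ZT, hours after lights on). Bmal1LKO, a liver knockout of the clock activator Bmal1 (symbol Arntl), had 6 restricted and 6 ad libitum libraries, 1 at each of ZT4, 8, 12, 16, 20 and 24. CryDKO, a double knockout of the clock repressors Cry1 and Cry2 that the labels do not limit to liver, had 8 and 8, with 1 library every 3 h between ZT3 and ZT24. ReverbLDKO, a liver double knockout of Rev-erb alpha and beta (Nr1d1 and Nr1d2), likewise had 8 and 8. WT had 11 restricted and 12 ad libitum libraries, 2 at each of the Bmal1LKO times except 1 for restricted feeding at ZT12. The Cre driver and the deleted exons are not given in the sources used here, and stellate cells of a liver knockout may or may not carry the deletion. The labels do not state whether libraries are separate animals, so p-values measure the spread between these libraries only.

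Whole-gene levels of the deleted genes do not check the labels, since they sum all exons. Arntl had a median of 3.18 FPKM in Bmal1LKO and 7.29 FPKM in WT livers. Cry1 was 0.29 ± 0.08 higher on the log2 scale in libraries labelled CryDKO than in WT (adjusted p = 0.00201, limma). Nr1d1 was 2.72 ± 0.14 higher in libraries labelled ReverbLDKO (adjusted p = 1.45e-20). Directions for these genotypes are those of the libraries so labelled. The scaling factor recovered from the smallest steps of the FPKM values was 9.52 M to 35.0 M per library (M, 1e6). This factor is not a count of the library's reads. Each library's values were also regressed on exon GC content, and the slope (log2 units for a 10-point step in GC) ran from -1.05 to 0.14 in restricted WT, 0.03 to 0.51 in ad libitum WT and -0.20 to 0.20 in the mutant groups. Restricted WT libraries numbered 2 were lowest, at -1.05 to -0.52, against -0.39 to 0.14 in those numbered 1.

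Hepatic stellate cells lie between the sinusoidal endothelium and the hepatocytes and store vitamin A. When activated in injury or in fatty liver disease they become myofibroblasts, which contract, secrete fibrillar collagen and inhibit its breakdown, and TGF-beta is their best known activating signal. In whole-liver RNA, fewer cells of a type and less RNA per cell cannot be told apart. Other stellate cell markers were present in all groups: Lrat, the enzyme that stores retinol as esters, was at 1.13 to 12.1 FPKM over the 67 libraries, Reln at 0.53 to 4.38 and Cygb at 0.59 to 5.87. Tests used log2(FPKM + 1) in 1 limma fit of all libraries, with a level and a 24 h cosine and sine per group, over the 9944 genes that averaged 1 FPKM or more. A gene passed at a Benjamini-Hochberg adjusted p under 0.05. Col1a1 and Timp1 were below that mean, so 8 of the 10 were tested there, and values for Col1a1 and Timp1 come from the same fit of 27849 genes without the filter. Differences are log2 differences ± SE and understate the change of low genes.

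**Figure D1:**
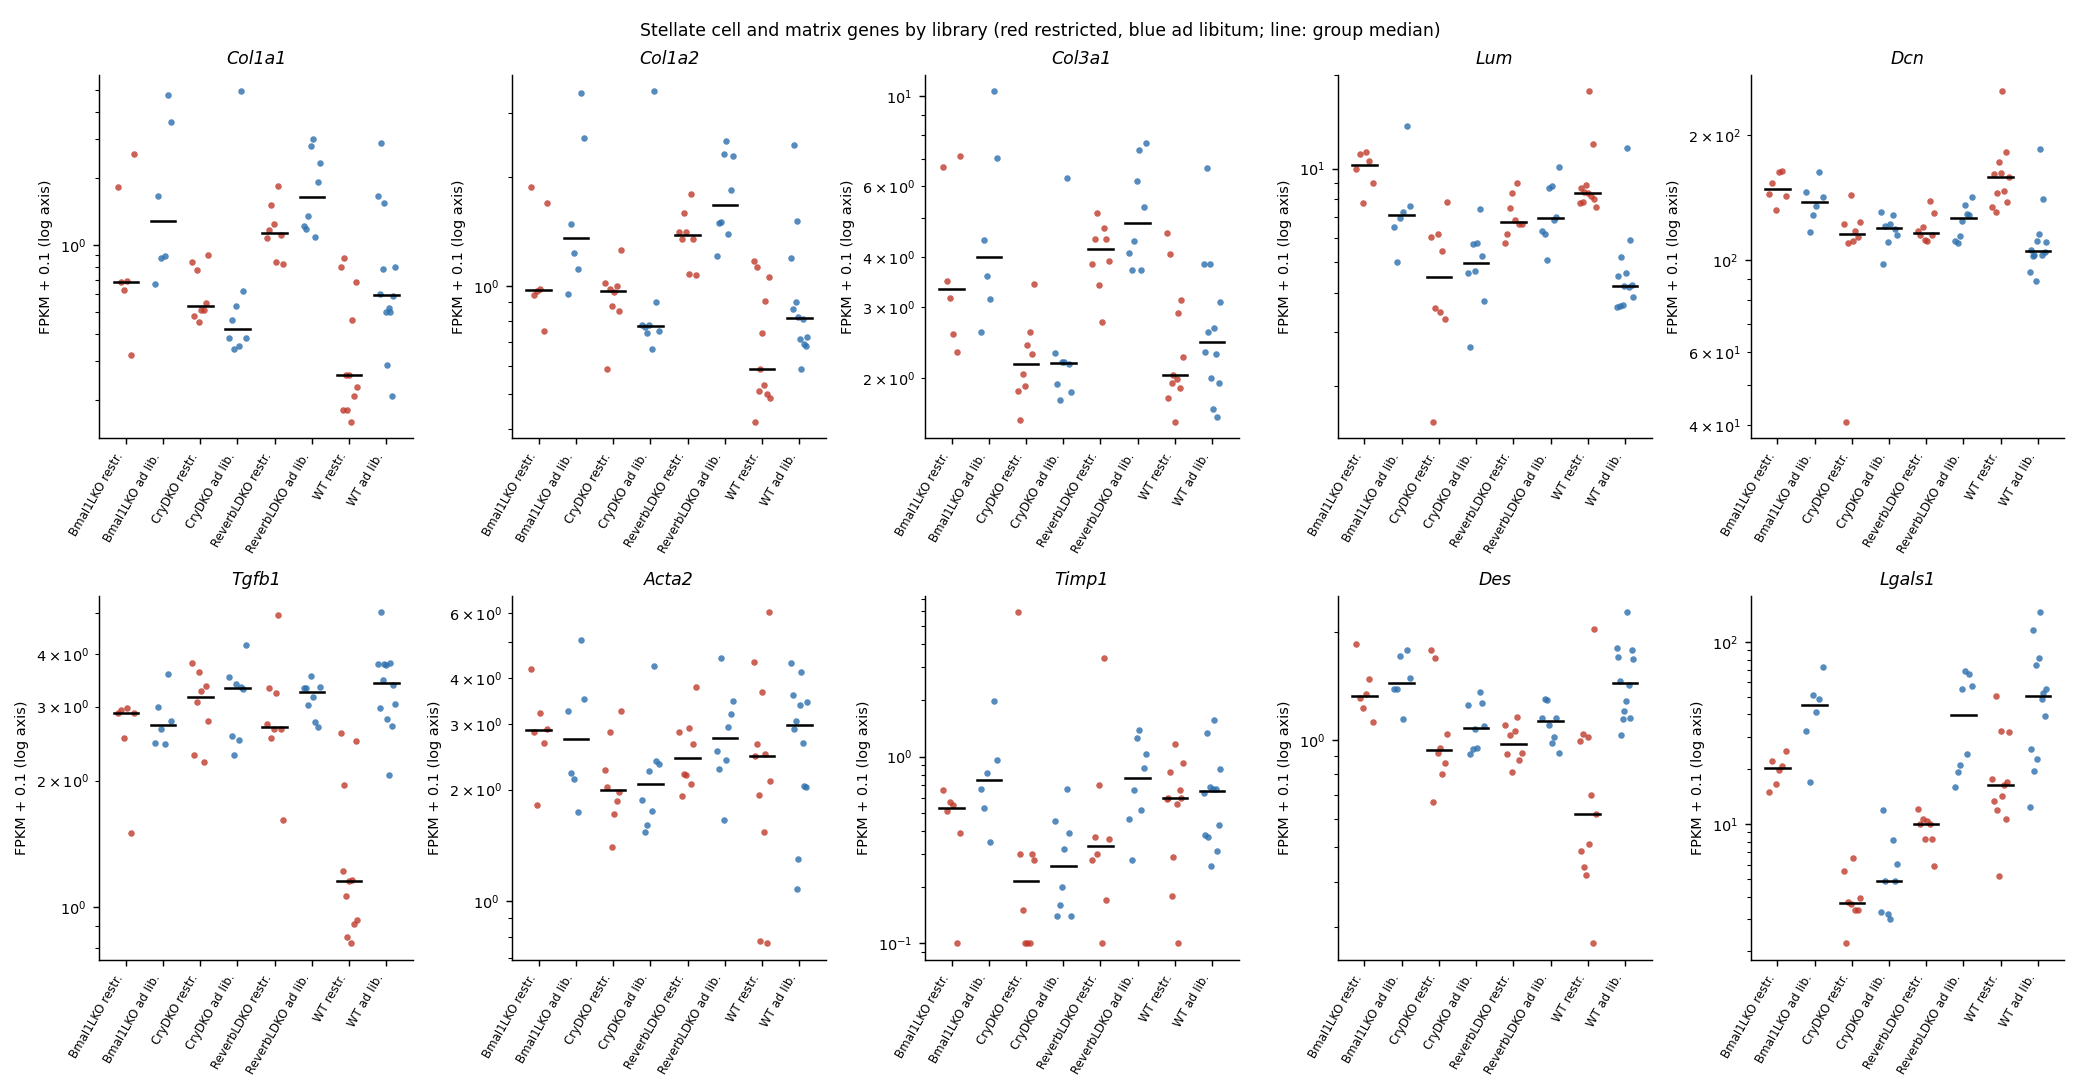
FPKM plus 0.1, on log axes, of the 10 genes in every library, with groups on the horizontal axis and a line at each group's median. Red points are restricted and blue points ad libitum libraries. Lgals1 is lowest in CryDKO, at 2.12 to 11.9 FPKM over both feedings, and the collagens are spread widely within Bmal1LKO and WT.

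Col1a1, Col1a2 and Col3a1 encode the chains of type I and type III collagen, the fibrillar collagens of scar tissue. Their promoters are shown because Col1a2 and Col3a1 moved together across libraries although their windows differ in base composition, and that of Tgfb1 because its gene followed library GC content most closely. Sequences are from RefSeq on GRCm38.p6, which had promoters for 6 of the 10 genes, and run 5′ to 3′ from 250 bases before to 50 bases after RefSeq's start. All 3 genes are on the plus strand. Capitals mark, on either strand, the CCAAT box, the TATA box (searched as TATAAA) and the GC box (searched as GGGCGG).
Col1a2, chr6:4505368-4505667: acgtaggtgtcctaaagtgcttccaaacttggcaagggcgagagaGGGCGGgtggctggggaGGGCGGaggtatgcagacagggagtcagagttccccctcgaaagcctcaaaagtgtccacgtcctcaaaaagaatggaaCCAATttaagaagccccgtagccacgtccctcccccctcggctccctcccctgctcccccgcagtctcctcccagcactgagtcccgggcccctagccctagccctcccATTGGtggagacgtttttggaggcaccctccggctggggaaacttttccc
Col3a1, chr1:45311288-45311587: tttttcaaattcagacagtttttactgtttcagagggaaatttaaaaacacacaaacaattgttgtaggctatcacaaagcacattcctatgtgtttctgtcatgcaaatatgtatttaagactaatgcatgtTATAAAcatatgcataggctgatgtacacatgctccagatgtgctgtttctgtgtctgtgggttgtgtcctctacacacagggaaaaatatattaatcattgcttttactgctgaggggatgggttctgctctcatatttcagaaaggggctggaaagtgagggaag
Tgfb1, chr7:25686752-25687051: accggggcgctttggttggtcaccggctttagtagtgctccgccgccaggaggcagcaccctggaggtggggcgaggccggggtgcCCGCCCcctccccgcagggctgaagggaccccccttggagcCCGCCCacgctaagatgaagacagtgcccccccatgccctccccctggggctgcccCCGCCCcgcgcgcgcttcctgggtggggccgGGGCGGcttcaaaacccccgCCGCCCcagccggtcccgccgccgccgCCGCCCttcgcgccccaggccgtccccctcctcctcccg
The Col1a2 window was 61.0% GC and lies inside the gene as GENCODE draws it (chr6:4504814-4541544), because RefSeq's start is further downstream. It held CCAAT 2 times and GGGCGG 2 times. The Col3a1 window was 37.7% GC and held TATAAA once. The Tgfb1 window was 77.0% GC and held GGGCGG 6 times. Of 27025 mouse promoter windows of that length, 37.9% held the CCAAT box, 14.2% the TATA box and 35.9% the GC box. Neither the clock E-box CACGTG, present in 7.24% of windows, nor AGGTCA, the core of the REV-ERB element, present in 16%, matched in any of the 6 windows. These are matches of letters and do not show binding.

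Counts of the 10 genes stand beside the share of all tested genes that passed. In WT 5 of 8 passed between feedings, Lum and Dcn upward and Tgfb1, Des and Lgals1 downward, where 64% of all genes passed. None of 8 passed in Bmal1LKO (0.0402% of all genes) or CryDKO (0.0201%), and 1 of 8 in ReverbLDKO (3.31%). At an unadjusted p under 0.05, 1 of 8 did in Bmal1LKO, Lgals1 (p = 0.0186), where 1017 of all 9944 genes did, and none in CryDKO, where 562 did. Against WT, 5 of 8 passed in Bmal1LKO, all upward (27.4% of all genes passed in either direction), 1 rose and 3 fell in CryDKO (65.4%), and 3 rose and 1 fell in ReverbLDKO (57.9%). After the GC correction 2 of 8 passed in Bmal1LKO, where 28.7% of all genes did. The test of a difference in feeding effects passed for 4 of 8, where 47.1% of all genes passed. The WT, CryDKO and ReverbLDKO counts against WT or between WT feedings are near or under the share of all genes, so they say nothing particular about these genes. Without the filter, 13.6% of genes passed in Bmal1LKO and 25.9% in ReverbLDKO against WT. After the GC correction the shares were 39.6% for feeding in WT, 5.29% for feeding in ReverbLDKO, 62.6% and 56.6% for CryDKO and ReverbLDKO against WT, and 26.6% for the difference in feeding effects. Against WT within restricted libraries they were 39.1%, 61.5% and 52.6% for Bmal1LKO, CryDKO and ReverbLDKO, and within ad libitum libraries 24.8%, 55.5% and 44.7%.

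The fibrillar collagens were higher in livers labelled ReverbLDKO than in WT livers. Col3a1 had a lowest, median and highest value of 2.66, 4.08 and 5.04 FPKM in restricted ReverbLDKO, against 1.46, 1.94 and 4.47 FPKM in restricted WT. Fed ad libitum, it had 3.60, 4.75 and 7.56 FPKM in ReverbLDKO, against 1.5, 2.36 and 6.54 FPKM in WT. Ranges overlapped in both feedings, and all 8 ad libitum ReverbLDKO libraries were above the WT median. Col3a1 rose by 0.66 ± 0.12 (adjusted p = 1.71e-05). Col1a2 rose by 0.52 ± 0.10 (adjusted p = 1.7e-05), and Col1a1 by 0.69 ± 0.14 without the filter (adjusted p = 0.000188). After a correction of each library for GC content and length, Col3a1 was still higher by 0.42 (adjusted p = 0.00166) and Col1a2 no longer passed, at 0.14 (adjusted p = 0.191). Within ad libitum libraries, the corrected differences were 0.63 for Col3a1 (adjusted p = 0.00149) and 0.41 for Col1a2 (adjusted p = 0.00785). Within restricted libraries Col3a1 passed as deposited (0.57, adjusted p = 0.00561) and not after the correction (0.22, adjusted p = 0.274). There Col1a2 was 0.50 higher as deposited (adjusted p = 0.00237) and at -0.13 after the correction (adjusted p = 0.414), a change of sign.

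Bmal1LKO livers also had higher collagen levels, with the highest values in a few libraries. Col3a1 had 2.23, 3.22 and 7.01 FPKM (lowest, median and highest) in restricted and 2.51, 3.9 and 10.2 FPKM in ad libitum Bmal1LKO. The high libraries were ZT4 and ZT24 of the restricted group, at 6.56 and 7.01 FPKM, and ZT20 and ZT24 of the ad libitum group, at 10.2 and 6.95 FPKM. All others lay between 2.23 and 4.31 FPKM, within the WT range. Every Bmal1LKO library was above the WT median of its feeding, 1.94 FPKM restricted and 2.36 FPKM ad libitum. Against WT, Col3a1 rose by 0.58 ± 0.13 (adjusted p = 0.000786; 0.49 after the GC correction, adjusted p = 0.00228) and Col1a2 by 0.42 ± 0.11 (adjusted p = 0.0021), whose call was lost after the correction (0.24, adjusted p = 0.0611). Col1a1 rose by 0.60 ± 0.15 without the filter (adjusted p = 0.00497). Leaving out any single library gave Col3a1 differences of 0.50 to 0.68, with no call lost. The corrected Col3a1 difference passed within ad libitum libraries (0.60, adjusted p = 0.0101) and not within restricted libraries (0.38, adjusted p = 0.106).

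Collagens did not pass against WT in libraries labelled CryDKO before the GC correction. Col3a1 had 1.48, 2.08 and 3.32 FPKM in restricted and 1.67, 2.08 and 6.17 FPKM in ad libitum CryDKO, close to the WT medians of 1.94 and 2.36 FPKM. The corrected differences were -0.37 for Col3a1 (adjusted p = 0.00435) and -0.33 for Col1a2 (adjusted p = 0.00146), where the uncorrected Col1a2 difference was 0.11 and did not pass. As deposited, neither Col1a2 nor Col3a1, nor Col1a1 without the filter, passed between feedings in any genotype. In WT, Col1a2 was at -0.20 ± 0.12 between restricted and ad libitum (adjusted p = 0.155), and at 0.41 after the GC correction (adjusted p = 0.0044), a change of sign. Col1a1 had a median of 0.16 FPKM in restricted and 0.50 FPKM in ad libitum WT (-0.43 ± 0.18 without the filter, adjusted p = 0.073). As few as 4 reads lay behind a Col1a1 value.

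A list of 15 further collagen chains, of which 8 were tested, holds network-forming and minor chains and also fibril-forming ones such as Col5a3 and Col27a1. Against WT, 6 rose and 1 fell in libraries labelled ReverbLDKO, with a median of 0.64 beside 0.01 over all genes. Col18a1, the source of endostatin, rose by 1.45 ± 0.18 and the basement membrane chains Col4a2 and Col4a1 by 0.89 and 0.88, while Col27a1 fell by 0.83. In Bmal1LKO 5 rose and 2 fell (median 0.40, all genes 0.07), led by Col5a3 at 1.15 ± 0.14. In CryDKO 2 rose and 1 fell (median 0.10). All genes passed at 57.9% in ReverbLDKO, 27.4% in Bmal1LKO, 65.4% in CryDKO and 64% between WT feedings. After the GC correction 4 rose and 2 fell in ReverbLDKO (median 0.31) and 3 rose and 2 fell in Bmal1LKO (median 0.21). In CryDKO 1 rose and 5 fell after it (median -0.32). In WT, 7 of the 8 fell under restricted feeding, among them Col5a3 by 1.12 ± 0.16 and Col27a1 by 0.78 ± 0.14 (median -0.70, all genes -0.03), and after the GC correction 3 rose and 1 fell, with a median of 0.21.

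Lum (lumican) and Dcn (decorin) encode small leucine-rich proteoglycans that bind collagen fibrils and set their thickness. They are neighbours on chromosome 10 (GRCm38), with Dcn at 97479609-97518143 and Lum at 97565128-97572703, and 46984 bases lie between them. Both rose under restricted feeding in WT. Lum had a lowest, median and highest value of 7.42, 8.24 and 17.6 FPKM in restricted WT, against 3.50, 4.11 and 11.5 FPKM in ad libitum WT. It was higher at 6 of 6 times, and within ZT16 the library numbered 2 was the highest of each feeding. Those libraries also held the highest Dcn value of each feeding. They had the highest FPKM sums of all 67 libraries, 697416 restricted and 1095941 ad libitum. Lum rose by 0.85 ± 0.15 (adjusted p = 2.98e-06), and by 0.46 after the GC correction (adjusted p = 0.00195). Dcn had 130.2, 158 and 255 FPKM in restricted and 88.8, 105 and 185 FPKM in ad libitum WT, and rose by 0.52 ± 0.11 (adjusted p = 7.04e-05). After the correction the Dcn difference was -0.10 (adjusted p = 0.447). Exons of Dcn are 37.4% GC and those of Lum 41.9%, the lowest of the 10 genes.

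The feeding effect on Lum and Dcn differed between genotypes (adjusted p = 0.00106 and 0.00339). After the GC correction Lum still passed (adjusted p = 0.04) and Dcn did not (adjusted p = 0.809). Restricted Bmal1LKO had Lum at 7.64 to 11.2 FPKM and ad libitum Bmal1LKO at 4.92 to 13.6 FPKM, a difference of 0.36 ± 0.20 that did not pass (adjusted p = 0.532). In CryDKO Lum was at 1.44 to 7.73 FPKM restricted and 2.57 to 7.34 FPKM ad libitum, and in ReverbLDKO at 5.67 to 8.89 and 4.99 to 10.02 FPKM, with no call. Against WT over both feedings, Lum fell by 0.46 ± 0.12 (adjusted p = 0.00072) and Dcn by 0.27 ± 0.09 (adjusted p = 0.00627) in libraries labelled CryDKO. As deposited, both passed within restricted libraries, at -0.95 (adjusted p = 4.21e-06) and -0.61 (adjusted p = 4.48e-05). Ad libitum they were 0.04 and 0.08 and did not pass. After the GC correction the Dcn differences were -0.25 restricted (adjusted p = 0.0541) and -0.20 ad libitum (adjusted p = 0.0973), and -0.22 over both (adjusted p = 0.009). The corrected pooled Lum difference no longer passed (-0.13, adjusted p = 0.238), while that within restricted libraries did (-0.42, adjusted p = 0.00932). Lum rose by 0.34 ± 0.13 in Bmal1LKO (adjusted p = 0.0372), a call lost on leaving out any 1 of 13 libraries (adjusted p up to 0.105), and passed ad libitum in ReverbLDKO, at 0.55 ± 0.16 (adjusted p = 0.00589).

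Among 17 tested genes of other matrix glycoproteins, proteoglycans and crosslinking enzymes, 10 rose and 2 fell in libraries labelled ReverbLDKO against WT (median 0.21, all genes 0.01). Fn1, fibronectin, rose by 1.14 ± 0.23 (adjusted p = 7.1e-05) and the matricellular gene Postn by 0.55 ± 0.08. P4ha1, a collagen prolyl hydroxylase subunit, fell by 0.50. In CryDKO 4 rose, Fn1 by 1.26 ± 0.23, and 7 fell, among them Serpinh1, the collagen chaperone, by 0.74 (median -0.09). In Bmal1LKO 3 rose and 2 fell. All genes passed at 57.9% in ReverbLDKO, 65.4% in CryDKO and 27.4% in Bmal1LKO, and the counts in CryDKO and Bmal1LKO are near those shares. In WT, 3 rose and 5 fell under restricted feeding, where 64% of all genes passed. There the matrix glycoprotein gene Ecm1 was at -1.25 ± 0.16 (adjusted p = 4.9e-09) and at -0.32 after the GC correction (adjusted p = 0.0422).

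**Figure D2:**
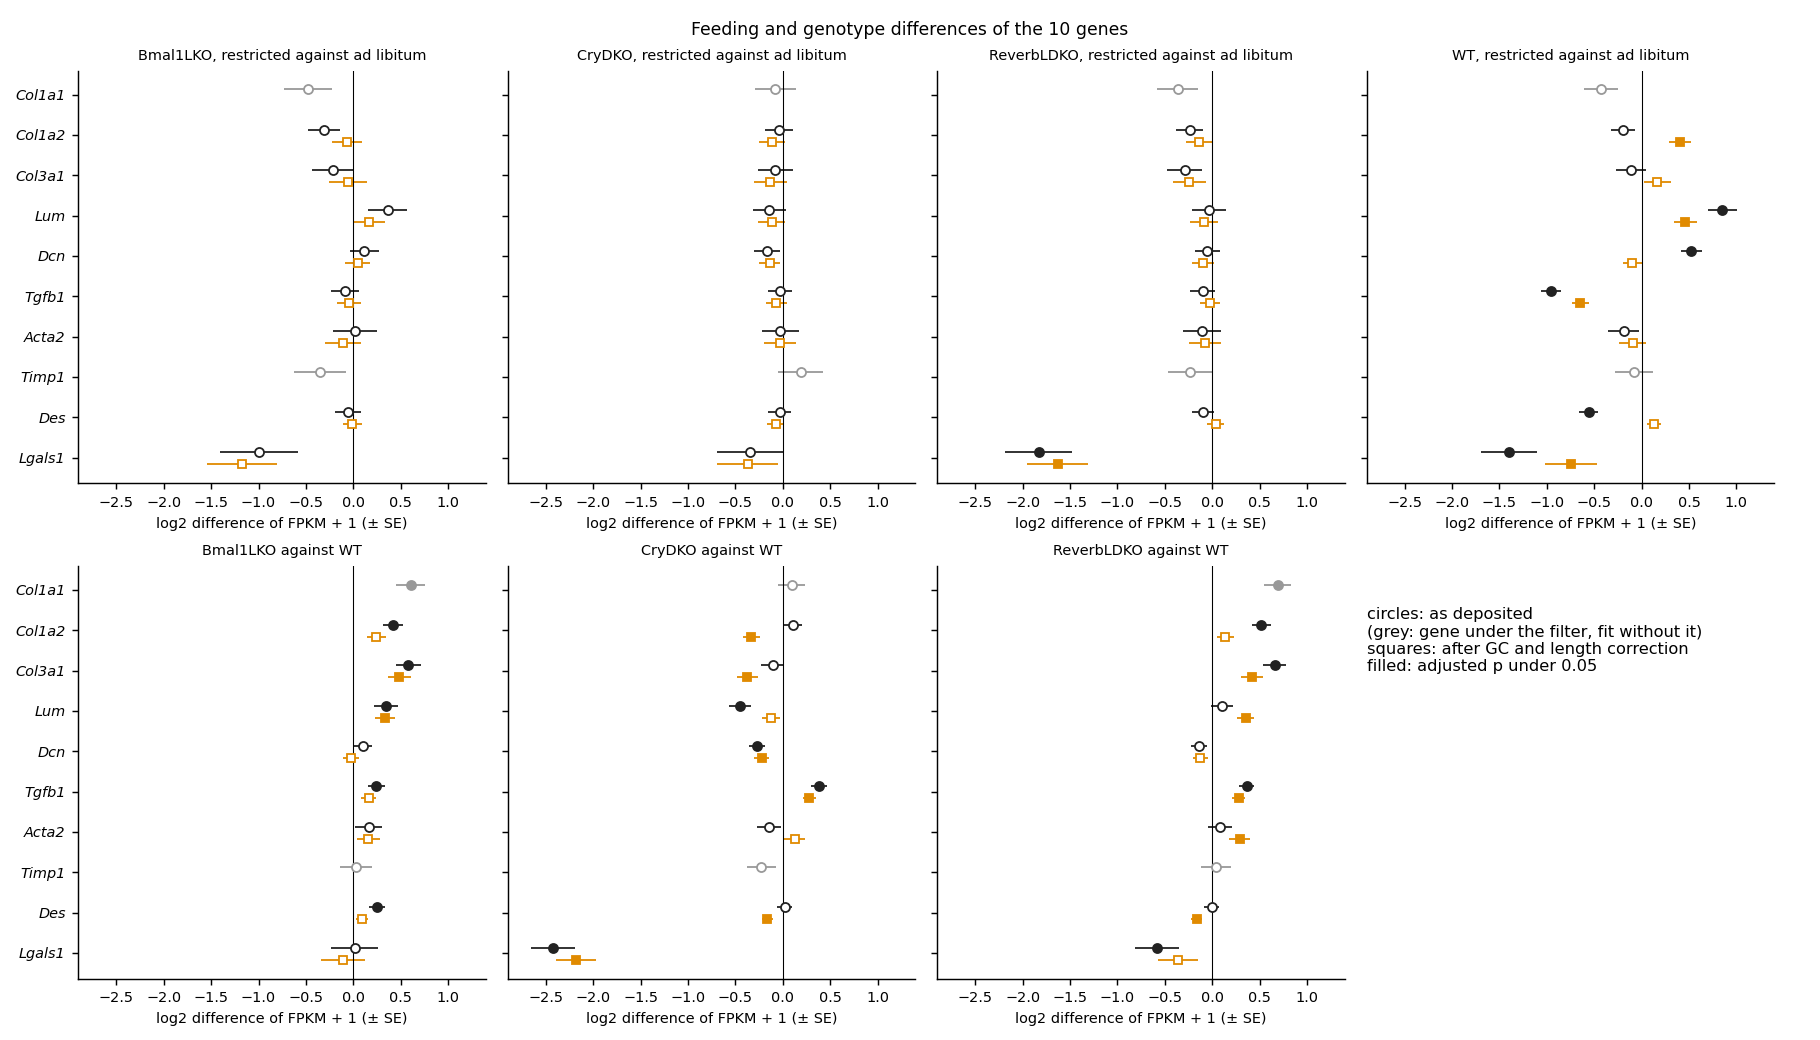
Log2 differences of FPKM + 1 (± SE) of the 10 genes for restricted against ad libitum feeding in each genotype (upper row) and for each mutant against WT over both feedings (lower row). Circles are values as deposited, grey where the gene was under the filter, orange squares are after the GC and length correction, and filled symbols passed. The greatest differences are those of Lgals1, at -2.42 in CryDKO against WT and -1.83 between feedings in ReverbLDKO.

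Tgfb1 encodes TGF-beta 1, the ligand that drives collagen transcription in stellate cells, and other liver cells make it too. It fell under restricted feeding in WT, to a lowest, median and highest value of 0.72, 1.05 and 2.49 FPKM in restricted WT, against 1.96, 3.32 and 4.93 FPKM in ad libitum WT. It was lower at 6 of 6 times, and 9 of 11 restricted libraries lay below all ad libitum libraries. The difference was -0.96 ± 0.11 (adjusted p = 2.18e-10), and -0.65 after the GC correction (adjusted p = 1.2e-07). Restricted WT libraries numbered 2 had 0.72 to 1.12 FPKM and those numbered 1 had 1.05 to 2.49 FPKM. No mutant genotype passed: Tgfb1 had medians of 2.80 and 2.61 FPKM in restricted and ad libitum Bmal1LKO, 3.07 and 3.23 FPKM in CryDKO, and 2.59 and 3.15 FPKM in ReverbLDKO. The feeding effect differed between genotypes (adjusted p = 7.64e-06; 0.000592 after the GC correction). Among restricted libraries Tgfb1 was higher than WT in Bmal1LKO, CryDKO and ReverbLDKO, by 0.68, 0.85 and 0.79 (adjusted p = 4.88e-05, 8.58e-08 and 7.17e-07). Ad libitum the differences were -0.19, -0.08 and -0.07, and none passed. The pooled rise in Bmal1LKO (0.24 ± 0.09, adjusted p = 0.0437) was lost on leaving out any 1 of 19 libraries and after the GC correction (0.16, adjusted p = 0.114).

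Across the 67 libraries the log2 level of Tgfb1 followed the GC slope with a Pearson r of 0.85, Des with 0.72, Dcn with -0.63 and Lum with -0.57. These correlations are descriptions, and the libraries at the extremes are the WT groups, so slope and feeding cannot be told apart within WT beyond what the correction and the 2 replicate numbers show. With the 6 restricted WT libraries numbered 2 left out, a choice made after seeing the data, Lum (0.68, adjusted p = 0.00707) and Tgfb1 (-0.70, adjusted p = 4.62e-05) still passed and Dcn (0.355, adjusted p = 0.0617), Des (-0.28, adjusted p = 0.0605) and Lgals1 (-0.715, adjusted p = 0.134) did not.

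**Figure D3:**
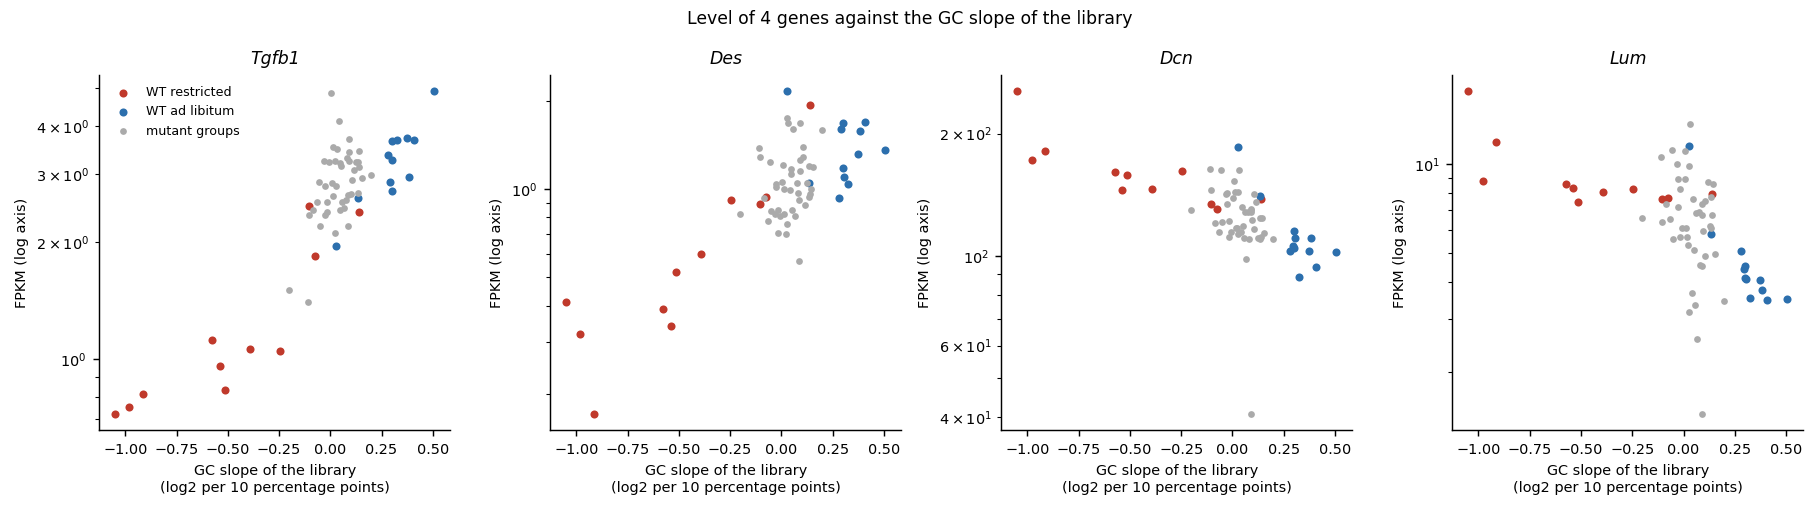
FPKM (log axis) of Tgfb1, Des, Dcn and Lum against the GC slope of each library, in log2 per 10 percentage points. Red points are restricted WT, blue points ad libitum WT and grey points the mutant groups. The restricted WT libraries reach slopes of -1.05, and those numbered 2, at or below -0.52, have Tgfb1 of 0.72 to 1.12 FPKM.

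Of 17 tested genes of the TGF-beta pathway, 12 rose and 3 fell in libraries labelled ReverbLDKO against WT (median 0.31, all genes 0.01). In CryDKO 11 rose and 1 fell (median 0.27, all genes 0.02), and in Bmal1LKO 8 rose and 1 fell (median 0.22, all genes 0.07). All genes passed at 57.9%, 65.4% and 27.4%, and the CryDKO count is near that share. After the GC correction 10 rose and 2 fell in ReverbLDKO (median 0.18). In CryDKO 8 rose and 1 fell after it (median 0.12), and in Bmal1LKO 7 rose and 1 fell (median 0.135). Ski, a repressor of SMAD signalling, rose by 0.81 ± 0.11 in ReverbLDKO and 0.95 ± 0.11 in CryDKO. Itgav, an integrin chain that activates latent TGF-beta, rose by 0.54 ± 0.08 in ReverbLDKO, and the BMP target Id1 by 0.50, 0.72 and 0.73 in ReverbLDKO, CryDKO and Bmal1LKO. Ctgf, a matricellular target gene of TGF-beta and YAP, fell by 1.03 ± 0.10 in CryDKO (adjusted p = 1.62e-12). In WT 6 rose and 5 fell under restricted feeding, where 64% of all genes passed. There the co-receptor Eng fell by 1.36 ± 0.14, Ltbp4, which tethers latent TGF-beta to matrix, by 1.62, and the inhibitor Smad6 by 0.89. After the GC correction Eng was at -0.55, Ltbp4 at -0.25 and Smad6 at 0.30, of the other sign.

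Acta2 encodes alpha smooth muscle actin, the marker of activated stellate cells, which vascular smooth muscle also makes. It did not pass as deposited in any of the 7 comparisons of feeding or genotype, and after the GC correction it passed in ReverbLDKO against WT (0.29, adjusted p = 0.0218). Group medians ran from 1.90 FPKM in restricted CryDKO to 2.89 FPKM in ad libitum WT, and single libraries from 0.67 to 5.92 FPKM, both in restricted WT. Des encodes desmin, the intermediate filament of rodent stellate cells and of muscle. It had 0.17, 0.52 and 1.94 FPKM (lowest, median and highest) in restricted WT and 0.93, 1.34 and 2.17 FPKM in ad libitum WT. Des fell by 0.56 ± 0.10 under restricted feeding (adjusted p = 4.09e-06), and was at 0.13 after the GC correction (adjusted p = 0.144). Its feeding effect differed between genotypes (adjusted p = 0.00753), also only before the correction (adjusted p = 0.451 after it). Des rose by 0.25 in Bmal1LKO (adjusted p = 0.0214; 0.09 and not passing after the correction), a call lost without Bmal1LKO restricted ZT4, ad libitum ZT12 or ad libitum ZT20. An antisense gene, Gm15179, covers 220 exon bases of Des, and the strand setting of the counting is not given in the sources used here. Of 4 tested contractile markers, Tpm2 fell in all 3 genotypes against WT, by 0.93 in Bmal1LKO and CryDKO and by 0.97 in ReverbLDKO, and Tagln rose by 0.52 in Bmal1LKO and fell by 0.76 in CryDKO.

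Timp1 encodes an inhibitor of matrix metalloproteinases and is made by stellate cells and, in the acute phase, by hepatocytes. It was low, with a median of 5 recovered reads per library, and listed at 0 in 6 of 67 libraries, where a count of 0 allows up to 0.22 to 0.35 FPKM (3 reads, counting error only). Group medians were 0.11 to 0.67 FPKM, and no comparison passed without the filter. In 2 libraries it was far higher. In CryDKO under restricted feeding, ZT3 had 5.82 FPKM while the other libraries of the group had at most 0.20 FPKM. In ReverbLDKO under restricted feeding, ZT18 had 3.29 FPKM, against at most 0.60 FPKM in the others. The same libraries had the highest levels of Saa1, the acute phase serum amyloid gene, at 41908 and 16119 FPKM, among all 67. In the CryDKO library Col3a1 was at 1.76 FPKM, under its group median of 2.08 FPKM. In the ReverbLDKO library Col1a1 (1.74 FPKM) and Col1a2 (1.7 FPKM) were the highest of the 8 libraries and Col3a1 was at 4.61 FPKM, against group medians of 1.04, 1.28 and 4.08 FPKM. Of 8 tested proteases and inhibitors, 5 rose and 1 fell in ReverbLDKO against WT (median 0.31), where 57.9% of all genes passed. After the GC correction 4 rose and 1 fell (median 0.11). Mmp14, a membrane-bound collagenase, rose by 0.59 ± 0.16 in ReverbLDKO and by 0.86 ± 0.16 in CryDKO. Serpine2 fell by 0.85 ± 0.12 in ReverbLDKO and by 1.14 ± 0.13 in Bmal1LKO, and rose by 0.99 ± 0.18 under restricted feeding in ReverbLDKO (adjusted p = 0.000622).

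Lgals1 encodes galectin-1, a secreted lectin that binds beta-galactosides, is abundant in activated stellate cells and is made by many other cell types. Livers labelled CryDKO had the lowest levels. Under restricted feeding Lgals1 had a lowest, median and highest value of 2.12, 3.58 and 6.40 FPKM in CryDKO, against 5.10, 16.3 and 50.6 FPKM in WT. Fed ad libitum, the values were 2.93, 4.78 and 11.9 FPKM in CryDKO, against 12.4, 50.2 and 145 FPKM in WT. Fed ad libitum the groups did not overlap, and under restricted feeding 6 of 8 CryDKO libraries lay below all WT libraries. How many of all genes had groups without overlap is not given here. The difference over both feedings was -2.42 ± 0.23 (adjusted p = 3.54e-12), and -2.18 after the GC correction (adjusted p = 5.06e-12). It passed within each feeding, at -1.89 ± 0.33 restricted (adjusted p = 4.34e-06) and -2.95 ± 0.32 ad libitum (adjusted p = 3.9e-10). The lowest level, 2.12 FPKM, rested on 42.7 recovered reads, and the fewest reads behind a CryDKO value were 28.1, at 3.27 FPKM.

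Lgals1 was also lower under restricted feeding in libraries labelled ReverbLDKO. The 8 restricted libraries, in order of time from ZT3 to ZT24, had 12.01, 9.96, 10.63, 8.16, 10.34, 9.91, 8.15 and 5.77 FPKM. The 8 ad libitum libraries at the same times had 15.9, 19.3, 21.1, 55.4, 69.2, 24.2, 67.04 and 57.04 FPKM. The groups did not overlap, and restricted was lower at 8 of 8 times, with no share of all genes given for overlap here either. The difference was -1.83 ± 0.35 (adjusted p = 0.00113), and -1.63 after the GC correction (adjusted p = 0.001). In WT Lgals1 was lower under restricted feeding at 6 of 6 times (-1.40 ± 0.30, adjusted p = 6.76e-05; -0.75 after the correction, adjusted p = 0.0247), with overlapping groups. In Bmal1LKO the restricted libraries had 14.9 to 25.2 FPKM and the ad libitum libraries 16.8 to 72.5 FPKM, lower at 5 of 6 times, a difference of -0.99 ± 0.41 that did not pass (adjusted p = 0.403). In CryDKO the difference was -0.34 ± 0.35 (adjusted p = 1). The feeding effects were not shown to differ between genotypes for this gene (adjusted p = 0.0606). Over both feedings Lgals1 differed by -0.58 ± 0.23 between ReverbLDKO and WT (adjusted p = 0.0282). That call was lost after the correction (-0.36) and without 1 of 5 libraries: ReverbLDKO restricted ZT24, ad libitum ZT3 or ZT18, or WT restricted ZT8 or ZT16 numbered 1. Within restricted libraries Lgals1 passed as deposited (-0.80, adjusted p = 0.0382) and after the correction (-0.80, adjusted p = 0.0269). Within ad libitum libraries it passed neither as deposited (-0.37, adjusted p = 0.361) nor after the correction (0.08, adjusted p = 0.838). In order of group medians, Lgals1 ran from CryDKO (3.58 restricted, 4.78 FPKM ad libitum) through restricted ReverbLDKO (9.93), WT (16.3) and Bmal1LKO (20.3) to ad libitum ReverbLDKO (39.8), Bmal1LKO (44.9) and WT (50.2 FPKM). The ranges of the last 3 groups overlapped widely.

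**Figure D4:**
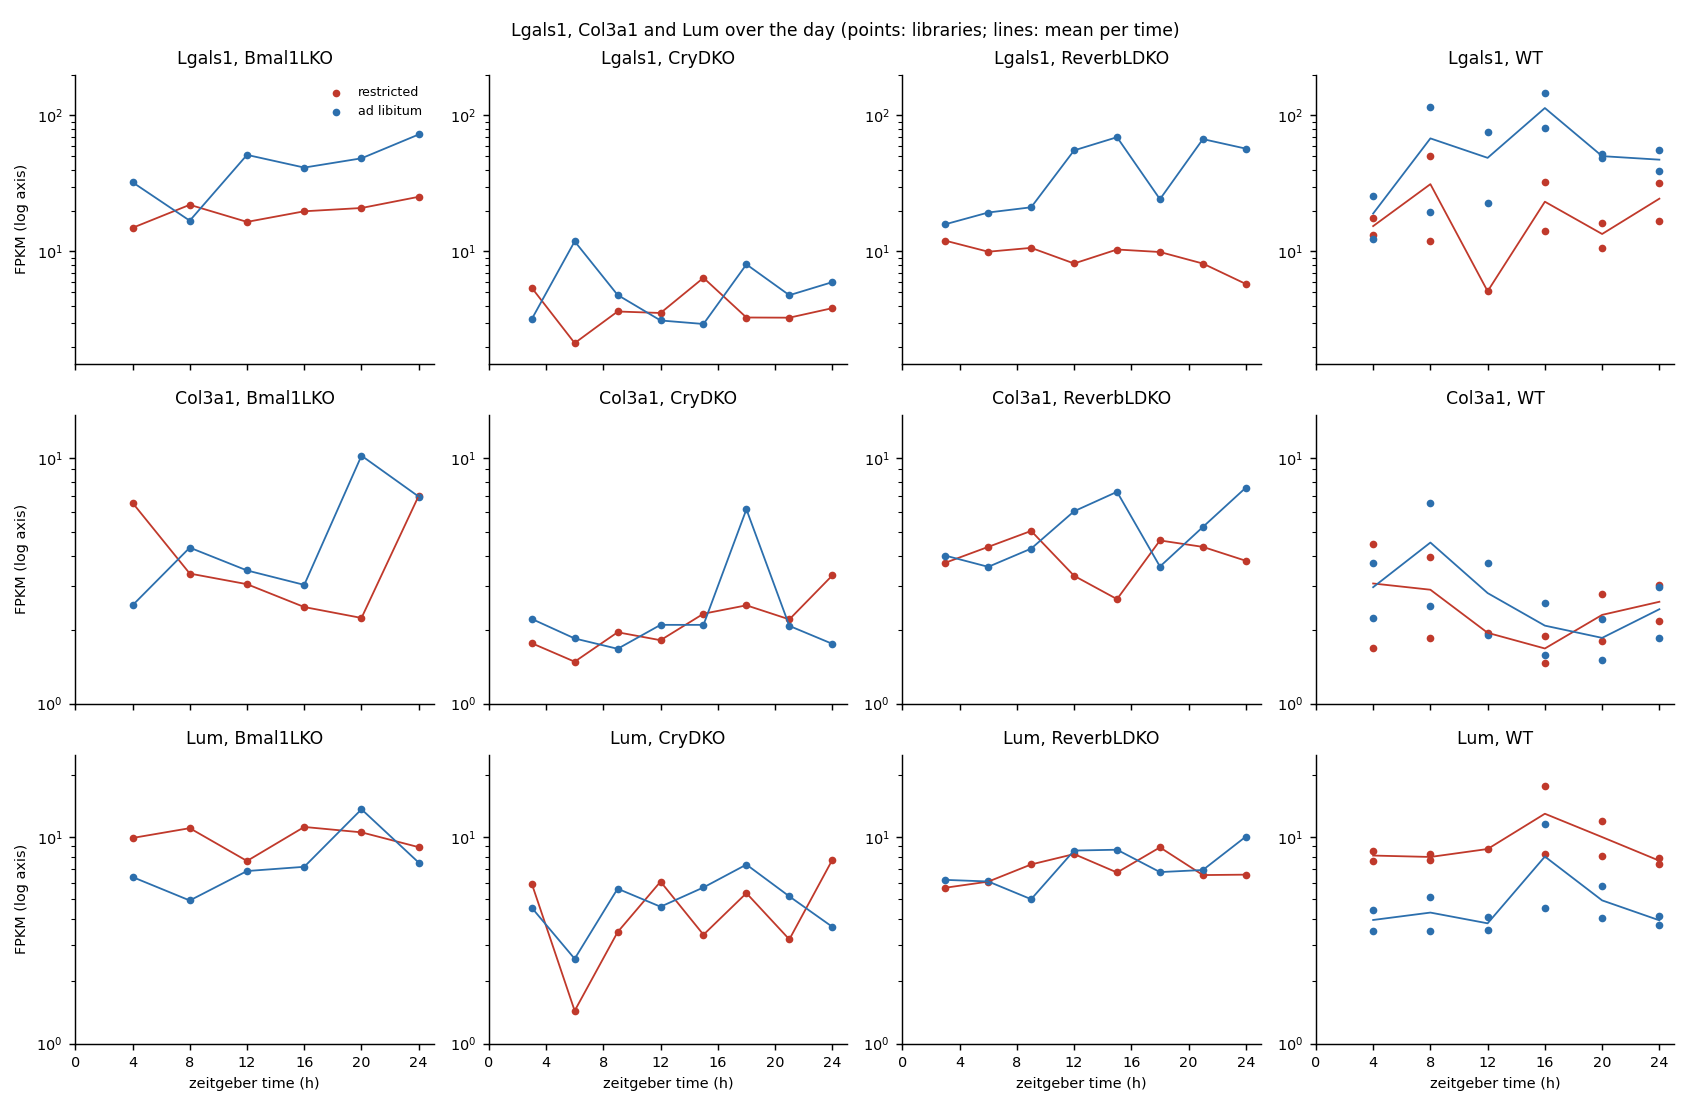
FPKM (log axis) of Lgals1, Col3a1 and Lum against zeitgeber time in hours, by genotype. Red is restricted and blue ad libitum feeding, points are libraries and lines join the means per time. Lgals1 in ReverbLDKO is lower under restricted feeding at 8 of 8 times, and Col3a1 in CryDKO has 1 high library, at ZT18 ad libitum.

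Markers of other cells moved in some of the same comparisons. Of 9 tested macrophage and immune markers, 1 rose and 2 fell in CryDKO against WT and 4 rose and 2 fell in ReverbLDKO against WT, where 65.4% and 57.9% of all genes passed, and none passed between feedings in ReverbLDKO. After the GC correction 6 rose and none fell in ReverbLDKO against WT (median 0.33), where 56.6% of all genes passed. In CryDKO 2 rose and 2 fell after it (62.6% of all genes). The summed level of the macrophage and immune markers (12 genes) was 248 to 389 FPKM in restricted CryDKO and 234 to 620 FPKM in restricted WT. Fed ad libitum it was 249.9 to 424 FPKM in CryDKO and 286 to 1082 FPKM in WT. In ReverbLDKO it was 261 to 519.9 FPKM restricted and 323 to 545 FPKM ad libitum. Of 11 tested endothelial markers, 6 rose and 3 fell in ReverbLDKO against WT, with sums of 58.7 to 110.0 FPKM in restricted and 72.8 to 87.2 FPKM in ad libitum ReverbLDKO, against 57.9 to 99.6 and 73.3 to 179 FPKM in WT. None of the macrophage or endothelial markers had a group median of 0. Of 15 tested stellate cell markers outside the 10 genes, 6 rose and 3 fell in ReverbLDKO (median 0.11), 4 rose and 5 fell in CryDKO (median 0.02) and 5 rose in Bmal1LKO (median 0.22). The counts in ReverbLDKO and CryDKO are at about the share of all genes that passed, and that in Bmal1LKO is near its share of 27.4%. After the GC correction 1 rose in Bmal1LKO (median 0.04). In ReverbLDKO 3 rose and 3 fell after it (median 0.01), and in CryDKO 2 rose and 7 fell (median -0.12). In WT 4 rose and 8 fell under restricted feeding (median -0.28), where 64% of all genes passed. After the GC correction 4 rose and none fell there, where 39.6% of all genes passed. Both tested bile duct markers, Spp1 and Sox9, rose in Bmal1LKO against WT (median 0.98). In CryDKO both fell (median -0.69), and in ReverbLDKO 1 rose (median 0.34). Sums of the 5 bile duct markers were 81.1 to 346 FPKM in restricted and 53.0 to 134 FPKM in ad libitum Bmal1LKO, against 40.3 to 180.0 and 23.9 to 83.4 FPKM in WT. Of 5 erythroid markers, which include near-identical globin genes whose reads may be split, 4 rose in ReverbLDKO (median 1.46) and 3 rose and 2 fell in CryDKO, and 3 fell under restricted feeding in WT (median -1.17). Of the 11 endothelial markers, 7 rose and 1 fell in CryDKO. The part of these cells in the collagen and Lgals1 differences was not tested.

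No gene of the 8 tested passed for a 24 h rhythm in any of the 8 groups. The closest were Lgals1 in ad libitum WT, with a fitted amplitude of 0.83 on the log2 scale peaking at ZT16.3 (adjusted p = 0.0633), and Tgfb1 in restricted WT (amplitude 0.30, adjusted p = 0.0969). Unadjusted p-values under 0.05 were also found for Col1a2 and Col3a1 in ad libitum Bmal1LKO (0.035 and 0.0415), Col3a1 in restricted Bmal1LKO (0.0191) and Dcn in restricted CryDKO (0.0328). Rhythms passed in 0.513% of all genes in restricted and 0.0302% in ad libitum Bmal1LKO, in 7.25% and 0.0503% in CryDKO, in 3.95% and 0.0302% in ReverbLDKO, and in 20% and 29.7% in WT.

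After group and time were taken out, the 10 genes fell into sets that varied together from library to library. The residuals of the collagens correlated at 0.90 to 0.95 over 67 libraries (Pearson r, as a description). Lum and Dcn correlated at 0.85 with each other and at -0.01 to 0.18 with the collagens. Acta2 and Des correlated at 0.66. Tgfb1 correlated at 0.45 to 0.54 with the collagens and at -0.05 and -0.02 with Lum and Dcn. All of these share the library's depth and base composition. The genes outside the 10 whose residuals were most like the mean of the collagens were Col6a1 (r = 0.82), Ccdc80 (0.72), Ppp1r9b (0.71), Col4a2 (0.68), Pcolce (0.65), Fbln5 (0.65), Smad6 (0.64) and Vim (0.64), where the median gene had 0.02 and the 99th percentile was 0.52. Pcolce enhances the cleavage of procollagen, Fbln5 organises elastic fibres and Vim is the mesenchymal filament vimentin.

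**Figure D5:**
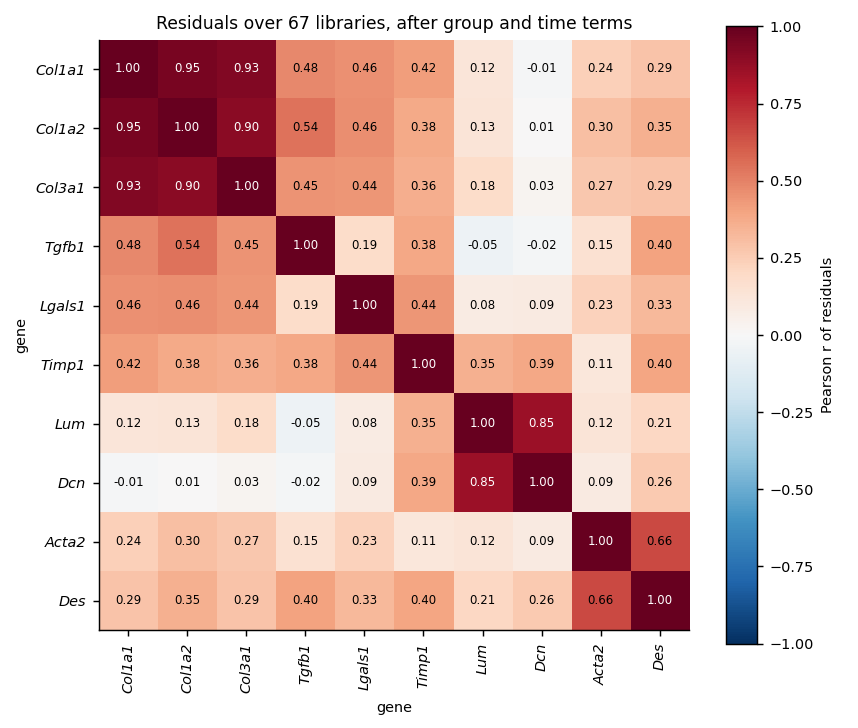
Pearson r of the residuals over 67 libraries for each pair of the 10 genes, both axes listing genes, with colour and printed values on a scale of -1 to 1. The collagens form 1 block at 0.90 to 0.95, and Lum with Dcn another at 0.85.

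Some libraries stood apart in these sets. In ad libitum CryDKO, ZT18 had 4.85 FPKM of Col1a1, where the group median was 0.32 FPKM, and was highest in Col1a2 (3.36), Col3a1 (6.17) and Acta2 (4.22 FPKM) as well. In ad libitum Bmal1LKO, ZT20 was highest in Col3a1 (10.2), Lum (13.6) and Timp1 (1.88 FPKM). In restricted CryDKO, ZT6 was lowest in Lum (1.44) and Dcn (40.6 FPKM, group median 115), and its group's lowest sum of the other 19 stellate cell markers was 63.8 FPKM, against a median of 140.0 FPKM. With the 4 mutant libraries ZT3 and ZT6 of restricted CryDKO, ZT18 of ad libitum CryDKO and ZT18 of restricted ReverbLDKO left out, a choice made after seeing the data, no count of passing genes moved by over 1.5 times. Without ZT20 of ad libitum Bmal1LKO, Lum (0.29, adjusted p = 0.105), Tgfb1 (0.21, adjusted p = 0.113) and Des (0.23, adjusted p = 0.0555) no longer passed in Bmal1LKO against WT, which left 2 of 5 calls, Col1a2 and Col3a1.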

How the data were processed

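Liver mRNA of 67 mouse samples was analysed from 1 deposited table. Stranded TruSeq mRNA libraries were made from RNeasy column RNA, per the labels' protocols. The authors deposited FPKM values per gene symbol, and the submitters' processing notes name STAR, featureCounts, DESeq2 and GRCm38, with no versions. Of 45808 rows, 27 whose symbols had turned into dates were left out. GENCODE lengths were used to recover the scaling factor: with a tolerance of 0.1 reads, 84.5 to 88.2% of values of up to 20 reads were whole. Counting error is larger where few reads lie behind a value. Limma 3.58.1 (R 4.3.3) fitted log2(FPKM + 1) with trend, tested on simulated data. The GC and length correction subtracted, per library, splines with 5 degrees of freedom. The 10 genes and all lists were chosen with earlier results of these data known. Named were the 10 genes, up to 4 passing genes of greatest difference per list and comparison, and the 8 genes most like the collagens. Alternatives were other pseudocounts, filters, scalings, library weights, fits with fewer groups or no time terms, a replicate block and libraries left out. Same-numbered WT libraries were not paired by the labels.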

Additional observations from a re-analysis of the deposited data

Results flagged for a closer look

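Each gene was looked at in each group of 4 to 10 libraries, which gave 60 pairs of gene and group. In 10 of these pairs, 1 library lay farther from the others than Dixon's 95% critical value. Chance gives about 1 in 20, but the pairs are not independent, since all genes were measured in the same libraries. ZT18 of ad libitum CryDKO was the highest of 8 libraries in Col1a1 (4.85 FPKM), Col1a2 (3.36), Col3a1 (6.17) and Acta2 (4.22 FPKM). ZT20 of ad libitum Bmal1LKO was the highest of 6 in Lum (13.59 FPKM) and Timp1 (1.88 FPKM). Timp1 was also far higher than in the rest of the group in ZT3 of restricted CryDKO (5.82 FPKM) and in ZT18 of restricted ReverbLDKO (3.29 FPKM). Dcn was lowest in ZT6 of restricted CryDKO (40.65 FPKM), and Tgfb1 in ZT20 of restricted Bmal1LKO (1.4 FPKM).

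By a test of the difference itself in limma, the effect of restricted feeding differed between genotypes for 4 genes. These were Lum (adjusted p = 0.00106), Dcn (adjusted p = 0.00339), Tgfb1 (adjusted p = 7.64e-06) and Des (adjusted p = 0.00753). That test passed for 47.1% of all genes. After the GC correction Lum (0.04), Tgfb1 (0.000592) and also Col1a2 (0.0368) passed, and Dcn (0.809) and Des (0.451) did not. The count also fell without the restricted WT libraries numbered 2.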

How the results depend on the processing

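Counts of the 8 genes that passed moved by over 1.5 times as follows, and the cause was not tested. For Bmal1LKO against WT, 5 became 3 with median-of-ratios scaling, 2 after the GC correction, 3 with only the groups compared in the fit, 3 within ad libitum or within restricted libraries, and 3 without the 6 restricted WT libraries numbered 2. Leaving out single libraries or replicate numbers gave 2 to 5, with 2 or 3 left without restricted Bmal1LKO ZT4, ZT8 or ZT16, ad libitum Bmal1LKO ZT8, ZT12 or ZT20, restricted WT ZT12 or ad libitum WT ZT16 numbered 1. For feeding in ReverbLDKO, 1 became 3 with library weights, whose fit stopped before convergence. For feeding in WT, 5 became 2 without those 6 libraries, and leaving out a library or replicate number gave 3 to 6. For CryDKO against WT, 4 became 1 within ad libitum libraries, and leaving out a library or replicate number gave 2 to 5. For the difference in feeding effects, 4 became 1 without those 6 libraries. For rhythm, 0 became 1 with a pseudocount of 0.1, with libraries scaled to the same sum, and without those 6 libraries, and 6 with library weights, and leaving out single libraries or replicates gave 0 to 1, with 1 without any of 7 single WT libraries. With the replicate block the rhythm count was 1, and no other count moved by over 1.5 times. WT libraries of the same number correlated at 0.398 to 0.626 at 4 of 5 times and at -0.287 at ZT24, and the labels do not say what a number marks, so they were not treated as pairs.

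Among genes that passed before or after the GC correction, signs turned for feeding in WT (Col1a2 0.41, Dcn -0.10, Des 0.13) and for CryDKO against WT (Col1a2 -0.33, Des -0.16). Signs of values that passed in neither also turned, as for Col3a1 between WT feedings (0.17) and Acta2 in CryDKO (0.13). They turned within ad libitum libraries for Tgfb1 in Bmal1LKO (-0.19), CryDKO (-0.079) and ReverbLDKO (-0.066), and for Lum (0.041) and Dcn (0.075) in CryDKO. With libraries scaled to equal sums, the median log2 difference over all tested genes was 0.205, 0.16 and 0.207 in Bmal1LKO, CryDKO and ReverbLDKO against WT, and -0.116 and -0.138 between feedings in Bmal1LKO and ReverbLDKO. Depth limits Timp1 and Col1a1 most.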
